A study of Mus musculus with 7 samples.

Results

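The 10 genes described here encode the protein machinery of the hormone granule. They are the granins Chga, Chgb, Scg2, Scg3 and Scg5, the convertase Pcsk1 with its inhibitor Pcsk1n, the carboxypeptidase Cpe, the endocrine luminal protein Resp18 and the vesicle membrane protein Syp. They were taken by symbol from the deposited expression tables, which list 37310 genes. All 10 symbols matched a single row, and all 10 passed the filter on low counts that left 14626 genes to test.

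RNA was sequenced in bulk from intestinal crypt cells of BmicreERT2, Rosa26RFP mice aged 3 months, sorted as strongly red, Epcam+ and CD45-. The Cre is an inducible one under Bmi1, a Polycomb gene, and the red fluorescence comes from the Rosa26 reporter, so every group shares both alleles. There were 2 libraries of mice on NWD2, 3 of mice on NWD1 and 2 of mice on AIN76A, each diet being a purified one given from weaning. As background, AIN76A serves as the control diet. NWD1 models a Western intake, richer in fat but poorer in calcium, in vitamin D3 and in donors of methyl groups. NWD2 keeps that composition apart from raised calcium and vitamin D3. NWD1 replicate 2 is labelled female and the other 6 libraries male. The labels do not say that each library is its own animal, so p-values measure the spread between these libraries only.

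Endocrine cells keep peptide hormones in dense-core granules until a stimulus releases them. Granins pack into the granule core with the hormones, while the convertases cut prohormones at pairs of basic residues and Cpe trims the basic residues left at the ends. In the intestinal epithelium this pathway belongs to the enteroendocrine cells, and its genes serve as general markers of that lineage. Cells carrying a Bmi1 reporter in mouse crypts have been reported to include cells of the enteroendocrine lineage.

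Total counts ran from 71331627 to 77959407 in NWD2, from 14034315 to 65822352 in NWD1 and from 39657707 to 58419160 in AIN76A. NWD1 replicate 3 was the shallowest. Bmi1 itself had 2.12 to 5.25 CPM (counts scaled to library size by edgeR's TMM method) over the 7 libraries, with overlapping diets. NWD2 replicate 2 stood apart on the first principal component, at 60.3 against -33.3 to 0.51 for the others, and had the lowest Epcam, 225 CPM against 510.0 to 1338 CPM elsewhere. Both NWD2 libraries and NWD1 replicate 3 carry the i5 index N504, and the remaining 4 libraries carry N503, so diet and index cannot be told apart between NWD2 and AIN76A. A deposited column of length-scaled levels (TPM) is headed NWD2 replicate 3, a title that no sample has, while NWD1 replicate 3 has no TPM column. Because the diet of that library is therefore less certain, results are also given without it. Leaving it out does not show what an NWD2 label would change. As an NWD2 library, its levels of Chga, Chgb, Scg3, Pcsk1, Pcsk1n and Cpe would lie within the AIN76A range. Its levels of Scg2, Scg5, Resp18 and Syp would stay below that range. No fit with that label was run.

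All 10 genes had lower levels in both NWD2 libraries than in either AIN76A library, with log2 fold changes between -2.44 for Cpe and -1.14 for Pcsk1. Their median was -1.72, beside -0.03 over all genes tested. Of the 14626 genes, 13.2% likewise had both NWD2 values below both AIN76A values, and 6.46% had a log2 fold change of -1 or below, as did all 10 of these genes. Over all genes, 52.6% had a log2 fold change below 0. The quasi-likelihood test of edgeR, adjusted by Benjamini-Hochberg, called 0 of the 10 and 0 genes in all (0%). The adjusted p ran from 0.831 to 0.996 over the 10. At an unadjusted p under 0.05 edgeR held all 10, beside 2.65% of all genes in the same direction and 3.83% (560 genes) in either. The DESeq2 Wald test called 6 of the 10, namely Chga, Chgb, Scg2, Scg5, Cpe and Resp18, beside 0.299% of its genes called lower. Both NWD2 libraries lay below all 5 others for 9 of the 10 genes, all but Scg2, beside 4.83% of all genes. In bulk samples fewer cells of a type and less RNA per cell cannot be told apart.

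Against NWD1, 9 of the 10 genes had both NWD2 libraries below all 3 NWD1 libraries, beside 14.5% of all genes. The exception was Scg2. The median log2 fold change was -1.60, beside 0.05 over all genes tested. All 10 were below 0, beside 46.5% of all genes, and 8 of 10 were at -1 or below, beside 10.6% of all genes. EdgeR called 0 of the 10 and 0 genes in all (0%), with adjusted p from 0.472 to 0.655, and at an unadjusted p under 0.05 held 9 of 10, beside 6.75% of all genes in the same direction and 7.89% (1154 genes) in either. DESeq2 called 5, namely Chga, Chgb, Pcsk1n, Cpe and Resp18, beside 1.19% of its genes called lower. Both NWD2 comparisons use the same NWD2 libraries, so they are not independent of each other.

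Between NWD1 and AIN76A the 10 genes had log2 fold changes from -0.85 for Scg2 to 0.96 for Pcsk1n, 6 below 0 and 4 above, beside 49.4% of all genes below 0. Their median was -0.08, beside 0.01 over all genes, and 0 of 10 were at -1 or below, beside 2.44%. EdgeR called 0 of 10 and 0 genes in all (0%), with adjusted p from 0.878 to 0.998, and 0 of 10 were at an unadjusted p under 0.05, beside 0.896% of all genes lower and 3.42% (500 genes) in either direction. DESeq2 called 0 of 10 and 1 gene in all (0.00409%), a lower one, and limma voom called 0 of both. Only Scg2 and Scg5 had all NWD1 values below both AIN76A values, beside 8.61% of all genes, and 0 of 10 had them all above, beside 11.4%.

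**Figure D1:**
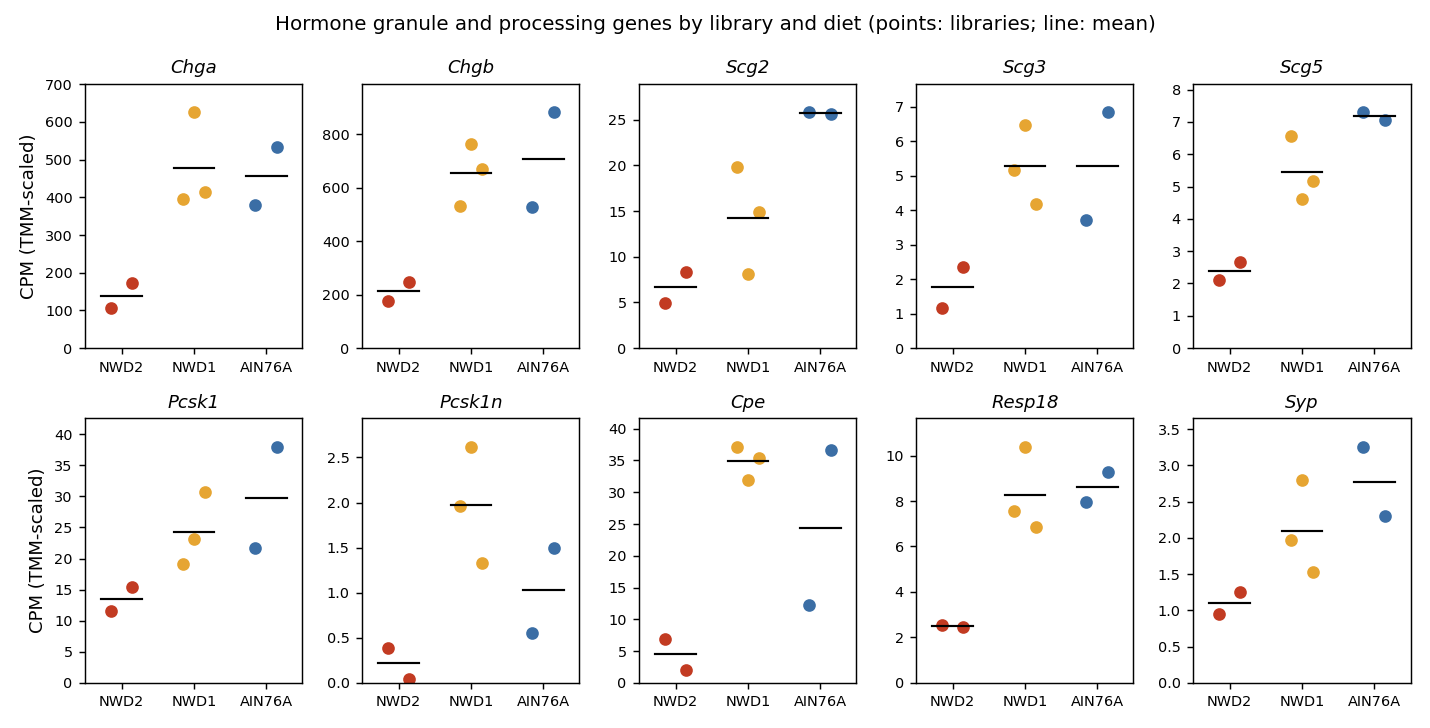
TMM-scaled CPM of the 10 genes, with a point for each library and a line at each diet's mean (NWD2, n = 2, NWD1, n = 3, AIN76A, n = 2), each panel with its own linear axis from 0. Both NWD2 points lie under every other point in 9 panels, and in the Scg2 panel NWD1 replicate 2, at 8.09 CPM, lies just under the higher NWD2 point, at 8.35 CPM.

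The granins make up most of the transcripts of this set. Chga (ENSMUSG00000021194.5), which encodes chromogranin A, a core protein of the granule and precursor of several peptides, had 105 and 172 CPM in NWD2, with 395, 627 and 415 CPM in NWD1 libraries and 379 and 533 CPM in those of AIN76A. The NWD2 values lie far below the lowest of the other 5 libraries, while NWD1 and AIN76A overlap. Its log2 fold change was -1.72 (SE 0.38) with NWD2 against AIN76A and -1.79 (SE 0.36) with NWD2 against NWD1. Chgb (ENSMUSG00000027350.7), encoding chromogranin B, had 176 and 249 CPM in NWD2, against 530.0, 762 and 670.1 CPM in NWD1 libraries and 529 and 883 CPM in AIN76A libraries. The groups separate in the same way, with log2 fold changes of -1.73 (SE 0.37) against AIN76A and -1.62 (SE 0.35) against NWD1. For both chromogranins NWD2 replicate 1 was lower than NWD2 replicate 2.

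Scg2 (ENSMUSG00000050711.5), encoding secretogranin II, the precursor of secretoneurin, followed another course. It had 4.95 and 8.35 CPM in NWD2, 19.8, 8.09 and 14.9 CPM in NWD1 libraries, and 25.9 and 25.6 CPM in AIN76A. Its AIN76A libraries were nearly equal, all 3 NWD1 libraries were below them, and the female NWD1 replicate 2 overlapped with NWD2. The log2 fold change was -1.95 (SE 0.45) with NWD2 against AIN76A, -1.10 (SE 0.41) with NWD2 against NWD1 and -0.85 (SE 0.39) with NWD1 against AIN76A. The last did not pass (edgeR adjusted p = 0.878) and was -0.57 without NWD1 replicate 2.

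Scg3 (ENSMUSG00000032181.6), whose protein binds chromogranin A and the granule membrane, had 1.17 and 2.37 CPM in NWD2, against 5.17, 6.46 and 4.18 CPM in NWD1 libraries and 3.73 and 6.84 CPM in AIN76A libraries. NWD2 lay below all other libraries, with log2 fold changes of -1.58 (SE 0.49) against AIN76A and -1.59 (SE 0.46) against NWD1. The Scg3 value against AIN76A was -2.17 without NWD2 replicate 2, -1.20 without NWD2 replicate 1 and -1.07 without AIN76A replicate 2. Scg5 (ENSMUSG00000023236.7), encoding a small granin that acts as a chaperone and inhibitor of the convertase of the Pcsk2 gene, had 2.12 and 2.65 CPM in NWD2, 6.58, 4.62 and 5.18 CPM in NWD1 libraries, and 7.31 and 7.06 CPM in AIN76A. Here the diets did not overlap at all, with NWD1 between the other diets, as the means of 2.39 ± 0.38 (SD, n = 2), 5.46 ± 1.01 (SD, n = 3) and 7.19 ± 0.18 CPM (SD, n = 2) for NWD2, NWD1 and AIN76A show. The log2 fold changes were -1.59 (SE 0.37) with NWD2 against AIN76A, -1.20 (SE 0.34) with NWD2 against NWD1, and -0.40 (SE 0.32) with NWD1 against AIN76A, and none of these passed.

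Promoter sequence was looked up because the genes had low levels in the same libraries. RefSeq windows from 250 bases before to 50 bases after the annotated start, in build GRCm38.p6, were at hand for 9 of the 10 genes, Cpe being the exception. The deposited data name mm9, so these coordinates belong to the sequence table alone. The palindrome TGACGTCA, the cyclic AMP response element, was searched on both strands and occurs in the windows of Scg2, Chgb and Pcsk1, and in 1.79% of all 32851 windows. In these 3 genes its first base lies 68, 72 and 78 bases before the annotated start. Its core TGACG, on either strand and contained in that palindrome, occurs in 6 of the 9 windows, namely those of Chga, Chgb, Scg2, Scg3, Scg5 and Pcsk1, and in 20.8% of all windows. The E-box CAGATG, searched on both strands, was in 0 of the 9 and in 17.2% of all windows. TATAAA, searched on the gene's strand, was in the window of Chga and in 8.32% of all windows. In Chga its first base lies at position 6 after the annotated start, not before it. A match describes the letters only, and nothing about binding was measured.

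The windows with the palindrome, and that of Chga, which holds the core alone, are shown with every TGACG or its reverse complement CGTCA in capitals. They lie at chr1:79439977-79440276 on the minus strand, chr2:132781392-132781691 on the plus strand, chr13:75089607-75089906 on the plus strand and chr12:102554691-102554990 on the plus strand, and each reads 5′ to 3′ in the direction of its gene.
Scg2: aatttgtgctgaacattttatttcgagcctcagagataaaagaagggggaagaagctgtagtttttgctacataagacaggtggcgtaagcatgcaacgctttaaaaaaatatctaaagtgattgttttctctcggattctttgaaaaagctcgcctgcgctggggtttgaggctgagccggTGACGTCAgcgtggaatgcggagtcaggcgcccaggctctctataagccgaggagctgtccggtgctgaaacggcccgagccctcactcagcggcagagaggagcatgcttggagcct
Chgb: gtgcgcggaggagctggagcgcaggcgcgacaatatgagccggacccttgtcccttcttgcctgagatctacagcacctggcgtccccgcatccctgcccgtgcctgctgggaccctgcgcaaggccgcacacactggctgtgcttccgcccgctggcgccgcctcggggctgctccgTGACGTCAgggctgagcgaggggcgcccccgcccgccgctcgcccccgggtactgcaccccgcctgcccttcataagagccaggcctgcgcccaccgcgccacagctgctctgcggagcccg
Pcsk1: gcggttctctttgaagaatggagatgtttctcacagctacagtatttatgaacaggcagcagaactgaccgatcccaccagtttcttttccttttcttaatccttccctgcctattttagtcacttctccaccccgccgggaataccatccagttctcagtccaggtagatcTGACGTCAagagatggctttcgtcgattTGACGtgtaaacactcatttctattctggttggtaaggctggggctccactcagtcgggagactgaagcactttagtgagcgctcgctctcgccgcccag
Chga: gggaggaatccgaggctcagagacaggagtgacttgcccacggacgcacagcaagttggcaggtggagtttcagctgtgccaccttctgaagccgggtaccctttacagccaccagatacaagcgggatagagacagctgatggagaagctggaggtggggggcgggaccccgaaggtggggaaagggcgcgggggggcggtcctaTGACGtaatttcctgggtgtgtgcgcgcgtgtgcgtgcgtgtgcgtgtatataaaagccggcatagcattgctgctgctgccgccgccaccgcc

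The part of these motifs in the differences between diets was not tested. The log2 fold changes with NWD2 against AIN76A and against NWD1 were -1.95 and -1.10 for Scg2 and -1.73 and -1.62 for Chgb. They were -1.14 and -0.85 for Pcsk1, and -1.72 and -1.79 for Chga, which holds the core alone.

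The processing enzymes differed more among themselves than the chromogranins did. Pcsk1 (ENSMUSG00000021587.4), encoding the main prohormone convertase of many enteroendocrine cells, had 11.6 and 15.4 CPM in NWD2, against 19.1, 23.2 and 30.7 CPM in NWD1 libraries and 21.6 and 38.0 CPM in AIN76A libraries. Its NWD2 values were the lowest, but the gap to the nearest NWD1 library was small. The log2 fold change was -1.14 (SE 0.37) against AIN76A and -0.85 (SE 0.34) against NWD1, and the first was -0.67 without AIN76A replicate 2. Cpe (ENSMUSG00000037852.7), encoding carboxypeptidase E, had 6.95 and 2.01 CPM in NWD2, against 37.2, 31.9 and 35.5 CPM in NWD1 libraries and 12.3 and 36.6 CPM in AIN76A libraries. The NWD1 libraries lay close together, the AIN76A libraries far apart, and NWD2 replicate 2 was the lowest of all. The log2 fold change was -2.44 (SE 0.63) against AIN76A and -2.96 (SE 0.61) against NWD1.

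Which libraries enter decides the size of the Cpe difference. Against AIN76A it was -1.45 without AIN76A replicate 2, -3.02 without AIN76A replicate 1, -1.81 without NWD2 replicate 2 and -3.64 without NWD2 replicate 1. Against NWD1 it was -2.32 without NWD2 replicate 2 and -4.15 without NWD2 replicate 1. Cpe was lowest in NWD2 replicate 2, the library with the lowest Epcam, and within AIN76A it was lower in replicate 1, where Epcam was 510.0 CPM against 986 CPM in replicate 2. Between diets, NWD2 replicate 1 had more Epcam than AIN76A replicate 1, at 838 CPM, but less Cpe. Chga, Chgb, Scg2, Scg3, Scg5, Pcsk1 and Syp were higher in NWD2 replicate 2 than in NWD2 replicate 1. Cpe and Pcsk1n were lower there, and Resp18 slightly lower. The part of Epcam in the result was not tested.

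Pcsk1n (ENSMUSG00000039278.9), encoding proSAAS, a granin-like inhibitor of the Pcsk1 convertase, was the scarcest of the set in CPM. It had 0.38 and 0.05 CPM in NWD2, against 1.97, 2.62 and 1.33 CPM in NWD1 libraries and 0.56 and 1.499 CPM in AIN76A libraries. Those values rest on 28 and 3 counts in NWD2, on 95, 182 and 20 counts in NWD1 and on 31 and 62 counts in AIN76A. The 3 counts of NWD2 replicate 2 allow 0.010 to 0.141 CPM (exact Poisson 95% interval, for counting error only), which stays below the other libraries. The log2 fold change was -2.21 (SE 0.87) against AIN76A and -3.17 (SE 0.85) against NWD1. Leaving out NWD2 replicate 2 gave -1.40 and -2.36, and leaving out NWD2 replicate 1 gave -4.37 and -5.33. The value against AIN76A became -1.33 when AIN76A replicate 2 was left out and -2.76 when AIN76A replicate 1 was.

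Resp18 (ENSMUSG00000033061.8), encoding a luminal protein of endocrine cells that shares a domain with the granule protein of the Ptprn gene, had the smallest SE of the 10 in both NWD2 comparisons. It had 2.53 and 2.45 CPM in NWD2, against 7.55, 10.4 and 6.84 CPM in NWD1 libraries and 7.94 and 9.26 CPM in AIN76A libraries. The NWD2 libraries were nearly equal and well under the lowest of the others. Its log2 fold change was -1.79 (SE 0.36) against AIN76A and -1.74 (SE 0.34) against NWD1. Syp (ENSMUSG00000031144.8), encoding synaptophysin, a membrane protein of small vesicles that pathologists use as an endocrine marker, had 0.95 and 1.25 CPM in NWD2, against 1.97, 2.81 and 1.53 CPM in NWD1 libraries and 3.26 and 2.30 CPM in AIN76A libraries. NWD2 was lowest here too, though NWD1 replicate 3 was close to it, and the log2 fold change was -1.34 (SE 0.48) against AIN76A and -0.95 (SE 0.44) against NWD1. With an i5 index term these were -0.69 and -0.47.

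**Figure D2:**
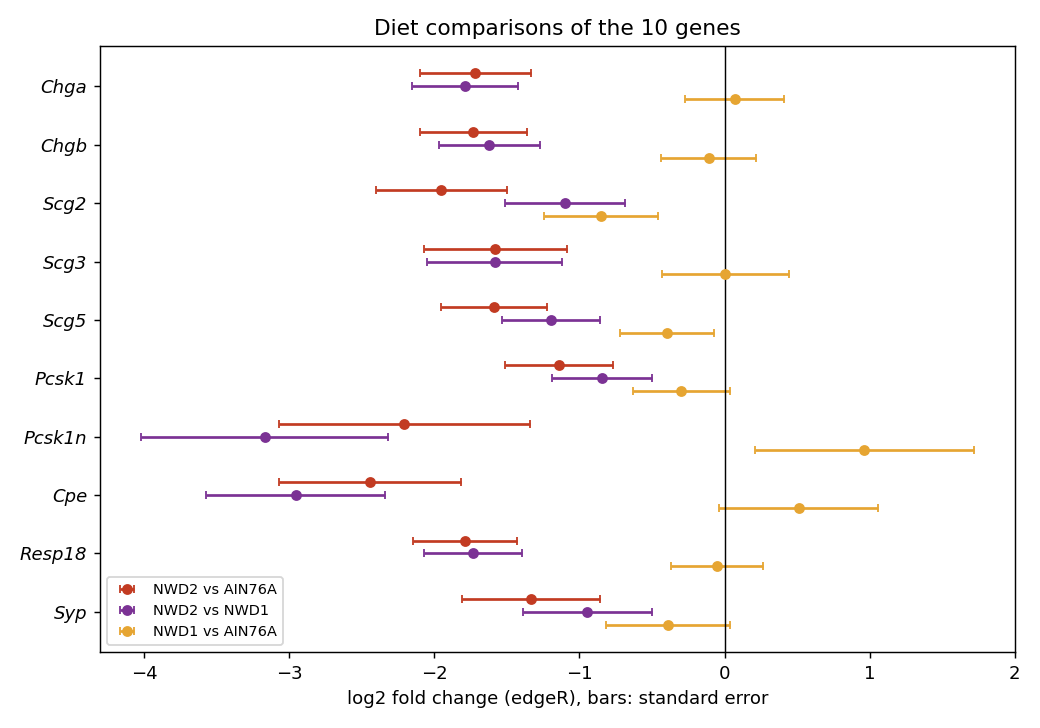
Fitted log2 fold change of each gene in the 3 diet comparisons, with bars for its standard error, from the edgeR fit over all 7 libraries. Both NWD2 comparisons lie left of 0 for all 10 genes, from -3.17 to -0.85, while NWD1 against AIN76A lies on both sides of 0.

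**Figure D3:**
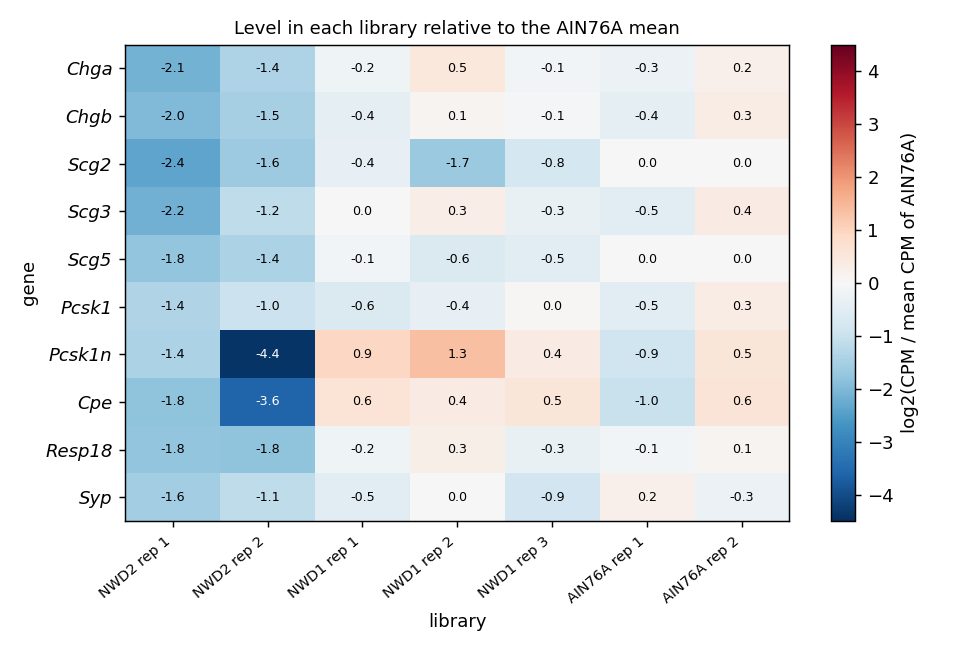
Heat map of log2(CPM over the AIN76A mean CPM of the same gene), with genes as rows and the 7 libraries as columns. Both NWD2 columns are below 0 throughout, and in NWD2 replicate 2 Cpe and Pcsk1n are at -3.60 and -4.41, below the other 8 genes.

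Taken per length, in TPM, the chromogranins dominated in every diet. Chga made up 41.5% and 46.3% of the summed TPM of the 10 genes in NWD2, 46.3% and 50.6% in NWD1 and 42.5% and 46.3% in AIN76A, and Chgb 47.8% and 45.9%, 42.7% and 42.3%, and 48.4% and 44.4% in the same libraries, NWD1 replicate 3 having no TPM. The order of Chga and Chgb changed between libraries of 1 diet, so neither leads beyond the spread. The summed TPM itself was 257 and 322 in NWD2, 906 and 1361 in NWD1, and 694 and 1338 in AIN76A.

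The other 8 genes were far below the chromogranins in TPM. Resp18, Cpe, Pcsk1, Scg2 and Scg5 had 2.57 to 35.7 TPM outside the single value of 1.57 TPM for Cpe in NWD2 replicate 2, and Scg3, Pcsk1n and Syp 0.04 to 6.11 TPM. Cpe ranked next after the chromogranins in NWD1 replicates 1 and 2 and in AIN76A replicate 2, but below Scg3 in NWD2 replicate 2. Pcsk1 held that rank in both NWD2 libraries, taking 2.66% and 2.401% of the summed TPM in NWD2, against 1.301% and 1.09% in NWD1 and 1.53% and 1.76% in AIN76A. Those shares do not overlap between NWD2 and the other diets, which was not tested. The shares of Scg3 overlapped between all diets, 0.385% and 0.532% in NWD2, 0.508% and 0.436% in NWD1, and 0.381% and 0.457% in AIN76A.

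The summed cargo of the granule was low in the same libraries. The 12 peptide hormone genes tested, of 20 listed, summed to 251 and 232 CPM in NWD2, to 1106, 735 and 590.5 CPM in NWD1 libraries, and to 1100 and 903 CPM in AIN76A. Gip, encoding an incretin, Sct, encoding secretin, and Cck, encoding cholecystokinin, had the highest mean CPM of the 12 and were at -2.401 (SE 0.40), -1.10 (SE 0.32) and -2.52 (SE 0.60) on the log2 scale with NWD2 against AIN76A. Of the 12, 11 were below 0 in that comparison, beside 52.6% of all genes, the exception being Cartpt. The median was -1.91, and 0 passed edgeR's adjusted test. Against NWD1 all 12 were below 0, beside 46.5% of all genes, with a median of -1.60. Only 6 of the 12 had both NWD2 libraries below all NWD1 libraries, beside 14.5% of all genes. Gcg, Sst and Ghrl were lower in NWD1 replicate 3 than in NWD2 replicate 1. For each 100 CPM of hormone genes there were 124 and 196 CPM of the 10 granule genes in NWD2, 92.5, 201 and 201 CPM in NWD1 libraries, and 90.0 and 171 CPM in AIN76A. These ratios overlap between the diets and were not tested. They vary widely within each diet, so the overlap does not show that granule and hormone genes differed equally.

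Other genes of the regulated pathway, listed with knowledge of earlier results of these data, were also low in NWD2. All 10 tested were below 0 against AIN76A, with a median of -1.24. Both NWD2 libraries were below both AIN76A libraries for 9 of 10, beside 13.2% of all genes, and 3 of 10 were lower at an unadjusted edgeR p under 0.05, beside 2.65%. Against NWD1 the median was -1.31, 7 of 10 lay below all NWD1 libraries, beside 14.5% of all genes, and 6 of 10 were lower at an unadjusted p under 0.05, beside 6.75%. EdgeR called 0 of them in either comparison. Ptprn2, a granule membrane phosphatase-like protein and the nearest of this list to the 10 genes in pattern, had 2.79 and 2.78 CPM in NWD2, 7.33, 6.13 and 7.10 CPM in NWD1 libraries, and 8.52 and 7.35 CPM in AIN76A. Both NWD2 values were under all others. Scgn, encoding the calcium sensor secretagogin, was at -2.05 (SE 0.52) and Pam, encoding the enzyme that amidates peptide hormones, at -1.28 (SE 0.46) on the log2 scale with NWD2 against AIN76A. Ptprn was at -1.02, Qpct, encoding glutaminyl cyclase, at -0.96, Chst8, encoding a sulfotransferase that acts on glycoprotein hormones, at -1.32, Vgf, encoding a granin-like neuropeptide precursor, at -0.61, Pcsk2, the second neuroendocrine convertase, at -1.71, and Cadps and Cadps2, which prime granules for release, at -1.19 and -0.48. Pcsk2 reached at most 0.33 CPM in any library and Vgf at most 0.996 CPM.

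Processing enzymes that cells use outside the granule pathway lay on both sides of 0. Of 12 listed genes 10 were tested, and with NWD2 against AIN76A 5 were below 0 and 5 above, with a median of 0.08 and 0 at an unadjusted edgeR p under 0.05. Furin, the convertase of the constitutive secretory route, had 17.7 and 27.7 CPM in NWD2, 18.1, 28.6 and 19.1 CPM in NWD1 libraries, and 14.0 and 18.4 CPM in AIN76A. Its diets overlap. Pcsk4, Pcsk5, Pcsk6 and Pcsk7, further convertases, were at -0.04, -0.12, -0.41 and 0.43 on the log2 scale with NWD2 against AIN76A, Mbtps1, a Golgi protease, at 0.58, the carboxypeptidase genes Cpd, Cpm and Cpn1 at 0.20, 0.20 and -0.38, and Qpctl at -0.06. Against NWD1 the median of the 10 was 0.11, with 4 below 0, 6 above and 0 at an unadjusted edgeR p under 0.05. There Pcsk4, Pcsk5 and Pcsk6 were at -0.91, -0.82 and -0.69, and Mbtps1 was the highest, at 0.56.

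Of the relatives of synaptophysin, 4 of 6 tested were below 0 against AIN76A, with a median of -0.22 and 0 at an unadjusted edgeR p under 0.05. Against NWD1 4 of 6 were below 0, with a median of -0.57 and 0 at an unadjusted edgeR p under 0.05. Sypl, which encodes the widely expressed synaptophysin-like protein, had 295 and 313 CPM in NWD2, 262.5, 244 and 221 CPM in NWD1 libraries, and 287 and 287 CPM in AIN76A. Both NWD2 values were above all others, at 0.08 (SE 0.26) on the log2 scale against AIN76A and 0.32 (SE 0.24) against NWD1, and neither passed (edgeR adjusted p = 0.996 and 0.759). The other members of the family tested, Sypl2, Synpr, Syngr1, Syngr2 and Syngr3, ran from -1.35 for Syngr3, at most 0.20 CPM in any library, to 0.07 for Sypl2 with NWD2 against AIN76A.

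**Figure D4:**
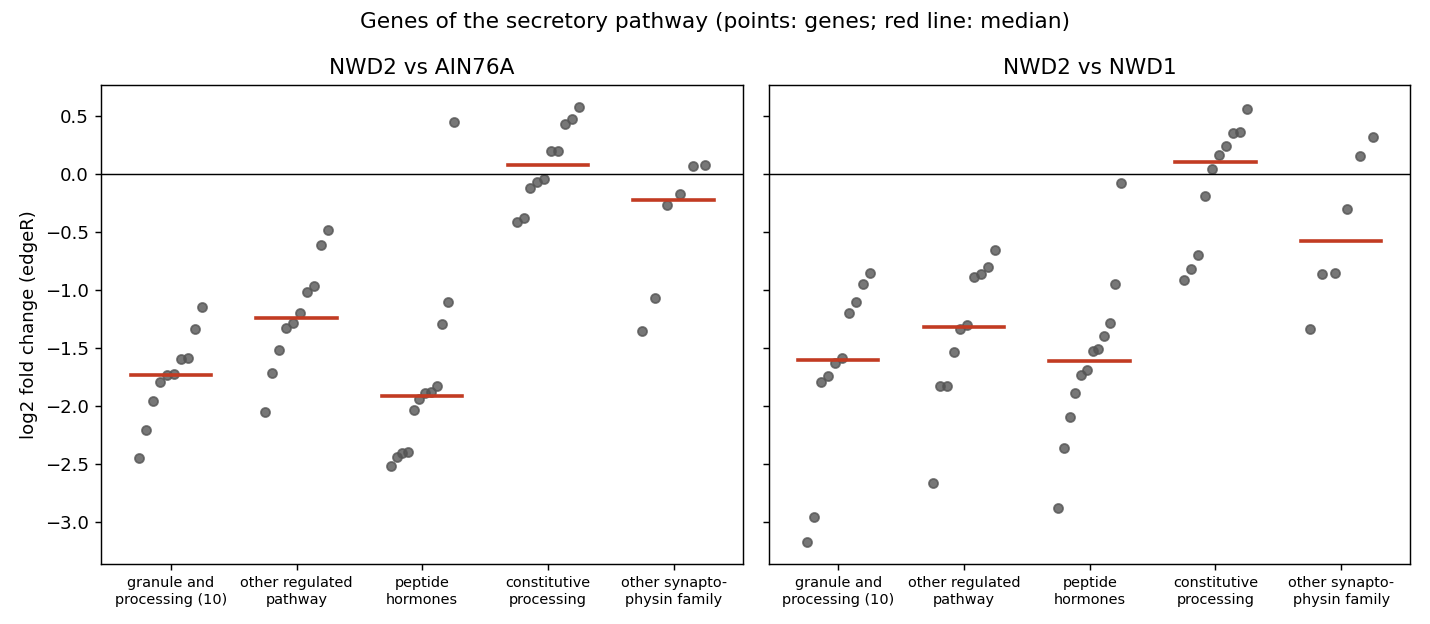
Fitted log2 fold changes of single genes in 5 groups of secretory genes, for NWD2 against AIN76A on the left and NWD2 against NWD1 on the right, with a red line at each group's median. The granule, regulated pathway and hormone groups have medians from -1.91 to -1.24, and the constitutive processing group has medians of 0.08 and 0.11. The synaptophysin relatives have medians of -0.22 and -0.57.

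Markers of other cell types differed between the same libraries in part. The counts below stand beside 52.6% of all genes below 0 with NWD2 against AIN76A. All 12 tuft cell markers were below 0 with NWD2 against AIN76A, with summed levels of 66.3 to 79.4 CPM in NWD2, 121 to 328 CPM in NWD1 and 166 to 284 CPM in AIN76A and none at 0. Transcription factors of the enteroendocrine lineage summed to 13.8 to 23.8 CPM in NWD2, 47.3 to 66.3 CPM in NWD1 and 34.8 to 56.3 CPM in AIN76A. Against AIN76A 14 of 14 tested were below 0, with Neurog3 at -0.02, Foxa1 at -0.44 and Foxa2 at -0.50. Both NWD2 libraries were below both AIN76A libraries for 10 of 14, beside 13.2% of all genes. Against NWD1 13 of 14 were below 0, beside 46.5% of all genes, and Neurog3 was at 0.38. Enterocyte markers were above 0 in 8 of 8 against AIN76A, at 41928 to 76042 CPM in NWD2, 35174 to 52520 CPM in NWD1 and 36699 to 38855 CPM in AIN76A, and none was at 0. All 8 Paneth cell markers were below 0 with NWD2 against AIN76A, at 10990 to 21636 CPM in NWD2, 14657 to 20001 CPM in NWD1 and 27337 to 40177 CPM in AIN76A. Goblet cell markers were below 0 in 6 of 8, at 7933 to 9742 CPM in NWD2, 5323 to 8248 CPM in NWD1 and 8877 to 19096 CPM in AIN76A, and leukocyte markers above 0 in 8 of 10, at 14.2 to 29.7 CPM in NWD2, 17.3 to 34.8 CPM in NWD1 and 15.7 to 20.3 CPM in AIN76A. Enterochromaffin genes were below 0 in 5 of 6, at 332 to 672 CPM in NWD2, 514 to 624 CPM in NWD1 and 499 to 634 CPM in AIN76A. Most of that sum was Ddc, at -0.06 on the log2 scale with NWD2 against AIN76A. Trpa1 was at -1.97, Slc38a11 at -1.52, Tph1 at -1.01, Slc18a2 at -0.27 and Slc18a1 at 0.003. EdgeR called 0 genes of each of these lists. The part of these markers in the result was not tested.

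Neurons also make granins, and their markers were looked up. The 10 neuronal markers summed to 3.50 to 5.20 CPM in NWD2, 6.35 to 11.4 CPM in NWD1 and 5.01 to 8.83 CPM in AIN76A, most of it Snap25, which endocrine cells also use. Elavl3 and Stmn2 were at 0 counts in all NWD1 and AIN76A libraries and at most 0.07 CPM in NWD2. Prph had 0.21 and 0.18 CPM in NWD2 and at most 0.13 CPM in the other libraries. Ret reached 3.12 CPM, in NWD1 replicate 3. The 5 glial markers summed to at most 0.62 CPM. The part of neurons or glia in the levels of the 10 genes was not tested.

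NWD1 replicate 3, the shallowest library, is the only other one with index N504, and it compares diets only if its NWD1 label is right. Against it alone the NWD2 mean was lower for all 10 genes, from -2.98 for Cpe to -0.47 for Syp on the log2 scale. That comparison has no test, and the share of all genes lower in it was not computed. Diet and index were not separated by it. With index as a term the log2 fold changes against AIN76A ran from -2.48 for Cpe to -0.69 for Syp, an estimate that rests on NWD1 replicate 3, and edgeR again called 0 of 10. Without NWD1 replicate 3 the values against AIN76A ran from -2.44 to -1.14, and those against NWD1 from -3.37 to -0.65.

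The genes whose levels most resembled the shared pattern of the 10 were named by Pearson r, over the 7 libraries, between their log2(CPM + 1) and the mean standardised level of the 10 genes. Among 8936 other genes with a mean of at least 5 CPM they were Anxa6 (r = 0.996), Fxyd6 (0.986), Prnp (0.980), Ucn3 (0.975), Bambi (0.958), Lmx1a (0.955), Rab3c (0.938), Ptprn2 (0.935), Trpa1 (0.930) and Reg4 (0.930). These values are a description, since the profile of the 10 genes separates the NWD2 pair from the other 5 libraries, a gap that these genes share. Ucn3 is a peptide hormone gene, Lmx1a an enteroendocrine transcription factor and Ptprn2 a granule gene named above. Anxa6, encoding a calcium-dependent membrane-binding annexin, averaged 2.19 CPM in NWD2, 7.22 CPM in NWD1 and 7.32 CPM in AIN76A, and Prnp, encoding the prion protein, 7.60, 23.9 and 23.4 CPM in the same order of diets.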

How the data were processed

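Whole-number counts for each Ensembl gene in 7 libraries were deposited. The authors' deposited TPM values, with a matching column for 6 of the 7 libraries, were used for levels per length and as an alternative. Libraries came from a low-input SMART-Seq v4 kit followed by Nextera XT, per the labels' protocols, a preparation that does not mark strand. Per the submitters' processing notes, STAR 2.4.2a, HTSeq 0.6.1, edgeR and build mm9 were named, with no roles. The annotation, strand setting and gene lengths are not given in the sources used here. The 1 TPM column that matches no sample was not used.

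Counts were fitted with edgeR 4.0.16 in R 4.3.3 (TMM, filterByExpr on diet, robust quasi-likelihood F test, diet as the only term, all 7 libraries, 4 residual degrees of freedom). A gene was called where its p, adjusted by Benjamini-Hochberg over 14626 genes, was under 0.05. The alternatives used DESeq2 1.42.0 and limma 3.58.1, among others given at the end. Each gene's reads limit its precision, from 3 counts of Pcsk1n in NWD2 replicate 2 to 52976 of Chgb in NWD1 replicate 2. Each SE was computed from the fit as the size of the log2 fold change over the square root of its quasi-likelihood F statistic.

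The members and lists were chosen with earlier results of these data known, as were the tests. All 10 members were named whatever their values. Of the lists of other regulated pathway genes, constitutive enzymes and synaptophysin relatives, all genes tested were named. Of 145 listed symbols 144 were in the table. In GENCODE, Pcsk1n, Resp18 and Syp overlap exons of genes on the other strand, Eras, Gm28902 and Gm14703, and unstranded reads of such pairs cannot be told apart. Eras had 0 counts in every library and Gm14703 at most 5. Gm28902 was not analysed here, so its part in the Resp18 counts is unknown.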

Additional observations from a re-analysis of the deposited data

How the results depend on the processing

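Over the alternatives tried, all 10 genes (9 with TPM, where Syp missed the filter) kept log2 fold changes below 0 in both NWD2 comparisons. The count of calls depended on the test. Of all genes, with NWD1 against AIN76A, NWD2 against AIN76A and NWD2 against NWD1, DESeq2 called 1, 51 and 188 and edgeR with no filter 85, 190 and 384, where edgeR called 0 in each. Of the 10 genes DESeq2 called 0, 6 and 5 and edgeR with no filter 0, 5 and 5. With NWD2 against AIN76A 6 genes in all were called with only the 2 diets compared, 1 with the replicate block and 1 with an i5 index term, the last calling 2 with NWD2 against NWD1. Limma on log2(TPM + 1) called 1 gene with NWD1 against AIN76A and 1 with NWD2 against NWD1. Without single libraries edgeR called 0 to 1 genes with NWD2 against NWD1 and 0 in the other comparisons, and 0 of the 10 throughout. The cause was not tested.

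The median of the 10 with NWD2 against AIN76A was -1.91 by library size only and -1.45 with an i5 index term, and ran from -1.95 to -1.44 without single libraries. With NWD2 against NWD1 it was -1.89, -1.92 on log2(TPM + 0.1) and -1.35, and ran from -1.79 to -1.32. Library size alone moved the median of all genes to 0.11, -0.15 and -0.19 in the order of comparisons above. With NWD1 against AIN76A the median of the 10 was 0.22 on log2(TPM + 1), 0.23 on log2(TPM + 0.1), and -0.27 to 0.24 without single libraries.

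Signs of the 10 genes reversed only with NWD1 against AIN76A, where 0 of the 10 were called under any alternative. Scg3 turned to -0.0033 with DESeq2 size factors, -0.0047 with the DESeq2 test and -0.17 with a sex term, and Chga to -0.17 with a sex term. Resp18 turned to 0.0457 by library size, 0.22 and 0.23 on the TPM scales, 0.0526 with the replicate block and 0.0618 with an i5 index term, and Chgb to 0.0802 and 0.0805 on the TPM scales. Without single libraries Chga ran from -0.17 to 0.34, Chgb from -0.44 to 0.31, Scg3 from -0.38 to 0.51, Pcsk1 from -0.65 to 0.16, Cpe from -0.0772 to 1.501 and Resp18 from -0.25 to 0.0618.

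The labels do not say that a replicate number marks a shared animal, litter or day, and only 2 numbers are shared by each pair of diets, so the libraries were not treated as paired. Across 8943 genes, deviations of libraries numbered 1 and of libraries numbered 2 from their diet means correlated at 0.086 and 0.086 for NWD2 with AIN76A, 0.367 and 0.19 for NWD2 with NWD1, and 0.405 and 0.131 for NWD1 with AIN76A. With the replicate block the median of the 10 was -1.72 for NWD2 against AIN76A and -1.70 for NWD2 against NWD1. Depth limits Pcsk1n most. In checks chosen after seeing the data, 10 genes had both NWD2 libraries below AIN76A and 10 below NWD1 by library size only, and 10 and 9 with DESeq2 size factors. The share of all genes was not computed under these scalings, so these counts cannot be read as particular to the 10 genes. With 2 or 3 libraries a diet, no group was large enough to test for an outlying library.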
